A study of Mus musculus with 8 samples.

Results

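Polysomal (P) and non-polysomal (NP) RNA of mouse oocytes was compared for the genes that code for the mRNA deadenylation machinery. These were the adaptor Btg4, 8 genes of the CCR4-NOT complex (Cnot1, Cnot2, Cnot3, Cnot4, Cnot6, Cnot6l, Cnot7 and Cnot8) and the RNA-binding protein gene Zfp36l2. They were chosen by gene symbol, and all 10 were found among the 25574 genes of the expression table. The oocytes came from CD1 mice, an outbred stock, that were 8 weeks old and had received 5 IU of pregnant mare serum gonadotropin 46 h before collection. They resumed meiosis during 180 min of culture without inhibitor and reached nuclear envelope breakdown (NEBD), and 0.1 mg/ml cycloheximide was then added for 10 min to hold ribosomes on mRNA. For each profile, the lysate of 200 oocytes was run on a 10% to 50% sucrose gradient that was cut into 10 fractions. The lighter fractions, with ribosomal subunits, monosomes and stored particles of mRNA and protein, gave the 4 NP libraries. The heavier ones gave the 4 P libraries, and the topmost fraction was not used. All 8 libraries shared strain, hormone treatment, stage and drug, there was no group of another stage or genotype, and each library was a pool of oocytes without a record of single animals.

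Deadenylation is the shortening of the poly(A) tail of an mRNA, and it is the usual first step of mRNA silencing and decay. In the CCR4-NOT complex, CNOT1 is the scaffold, CNOT2 and CNOT3 form the NOT module, and the nuclease site holds a CAF1-type enzyme (CNOT7 or CNOT8) together with a CCR4-type enzyme (CNOT6 or CNOT6L). BTG4 binds the CAF1 enzymes and carries the complex to maternal mRNAs, and ZFP36L2 does so at AU-rich elements. A growing oocyte stores much of its mRNA untranslated, and after meiosis resumes, stored mRNAs with cytoplasmic polyadenylation elements (CPEs) in their 3′ UTR gain long tails and enter polysomes while others are deadenylated. Mice without Btg4 fail to clear maternal mRNA, and those without Cnot6l clear it late.

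Values were FPKM, reads divided by the length of the gene model and by the size of the library, which describe the share of a gene in its own library and not the number of molecules per oocyte. A higher share in P could come from more copies of a transcript on ribosomes, from heavy stored particles or from less of other RNA in that pool. These cannot be told apart here. The authors could not exclude that heavy stored particles sediment with polysomes. A scaling number for each library was recovered from the steps between values. It ranged from 1299377 to 7594637 for NP and from 2677946 to 4699328 for P. The steps, given below as reads, summed in every library to more than this number. In NP replicate 1 the sum was 5388202 against 3192245. The reason was not tested, so a read here is 1 step and may not be 1 sequenced read. A value above 0 was listed for 11703 to 13753 genes per NP library and for 9139 to 11339 genes per P library. All 12 listed oocyte marker genes, among them Gdf9 and Zp3, had a mean above 1 FPKM. Of 14 cumulus and granulosa cell markers, 7 had a mean above 0.1 FPKM in a group, while Inhba, Inhbb, Foxl2, Has2 and Ptx3 were listed at 0 in every library. The summed level of these 14 markers was 15.3 to 97.8 FPKM in NP and 3.27 to 64.0 FPKM in P. In every library but P replicate 4, Cyp19a1 and Nr5a2 made up most of it, while P replicate 4 had Lhcgr at 1.17, Inha at 0.759, Cyp19a1 at 0.629 and Nr5a2 at 0.487 FPKM. The part of these markers in the results was not tested.

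**Figure D1:**
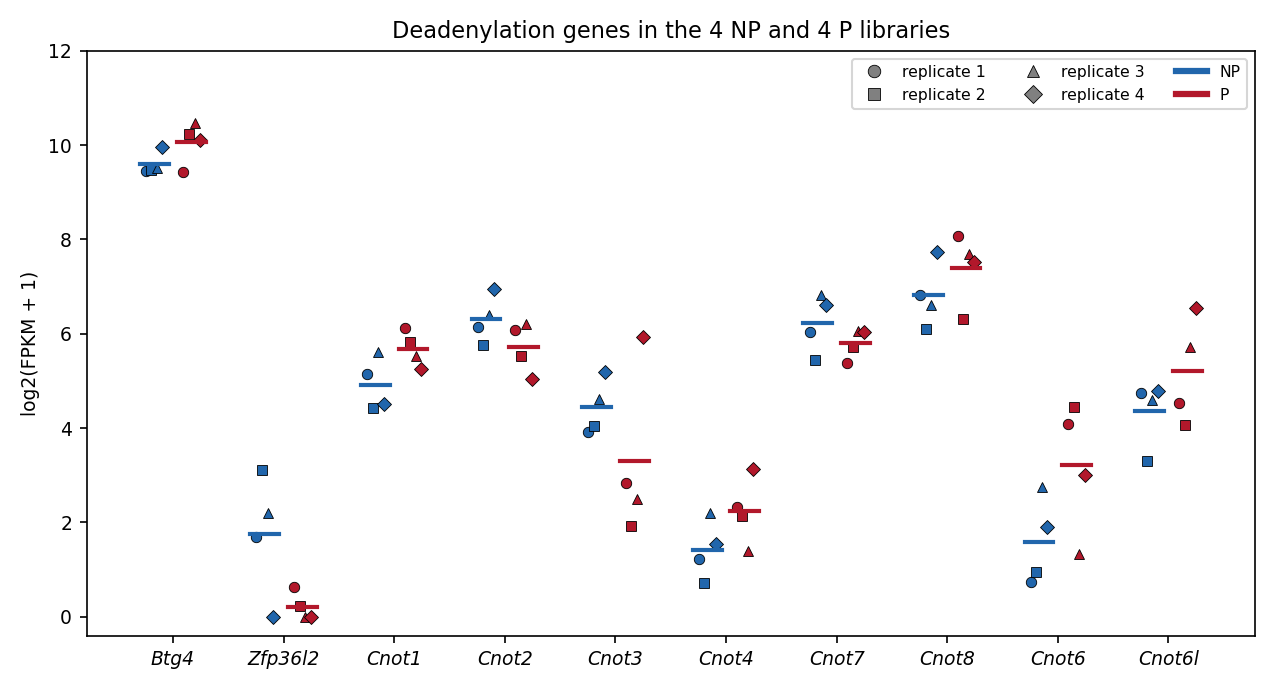
Level of each of the 10 genes on a log2(FPKM + 1) axis, with 1 point for each of the 4 NP libraries (blue) and 4 P libraries (red), a marker shape for each replicate number and a bar at the mean of the log2 values. Btg4 lies above all other members in every library, Zfp36l2 is at 0 in 3 libraries, and the NP and P points overlap for every gene.

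The 10 genes did not share 1 direction between the pools. On mean FPKM, Btg4, Cnot1, Cnot4, Cnot6, Cnot6l and Cnot8 were higher in P, and Zfp36l2, Cnot2, Cnot3 and Cnot7 were higher in NP. A difference of more than 2-fold in mean FPKM was seen for Cnot4, Cnot6 and Cnot6l towards P (16.9% of all genes tested) and for Zfp36l2 towards NP (40.6% of all genes tested). No member had every NP library above every P library, which 5.92% of the genes tested did, and none had every P library above every NP library, which 0.357% did. All 10 passed the filter on low values, a mean above 0.1 FPKM in at least 1 group, and did so in both groups.

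The log2 fold change of P over NP, fitted with limma on log2(FPKM + 1) for 14292 genes, was above 0 for 6 of the 10 members, against 28.6% of all genes tested. Its median was 0.52 over the members and −0.39 over all genes tested. After Benjamini-Hochberg adjustment over all genes no member was called at a threshold of 0.1, as were 0.021% of genes, and the adjusted p of the members lay between 0.478 and 0.753. At an unadjusted p below 0.05 limma counted 1 member, Zfp36l2, lower in P (9.47% of all genes), and no member higher in P (0.476% of all genes). Voom on the recovered reads also called no member, and none had an unadjusted p below 0.05 there. With each library centred on its own median, which moved the median of all genes to 0.57, the members above 0 became 8 of 10 and the share of all genes above 0 became 73.0%. In that setting 6 members had an unadjusted p below 0.05, as did 20.3% of all genes tested in either direction, against 9.95% without centring. The 6 were Btg4, Cnot1, Cnot4, Cnot6, Cnot6l and Cnot8, all higher in P, and none passed the adjusted threshold.

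**Figure D2:**
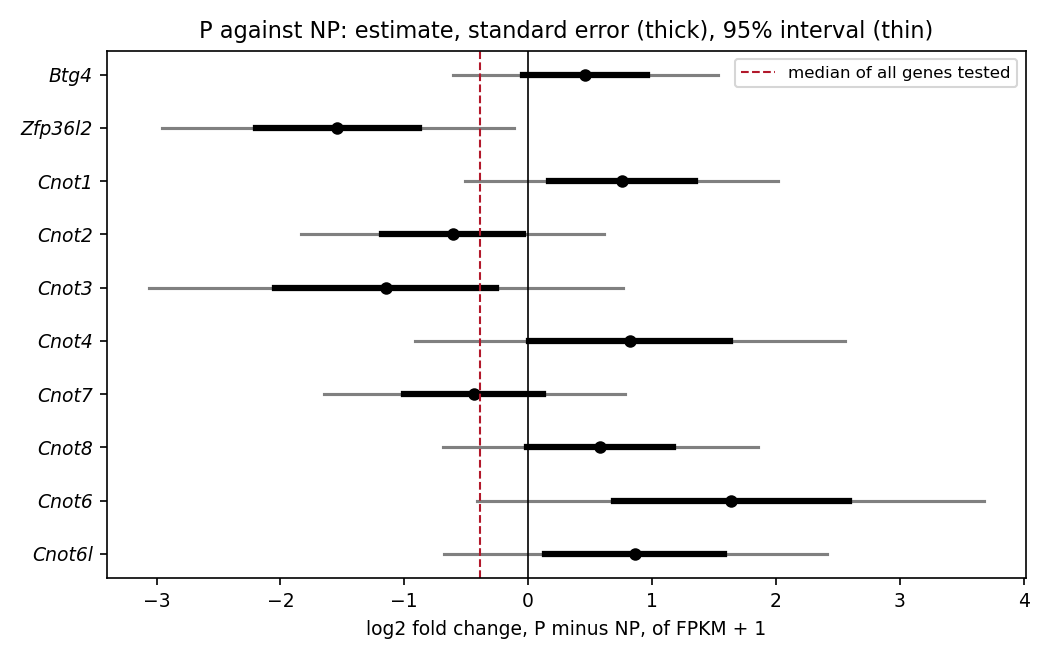
Log2 fold change of P minus NP on the log2(FPKM + 1) scale for each of the 10 genes, from limma on all 8 libraries, with its standard error (thick bar), its 95% interval (thin bar) and the median of all genes tested (dashed line, −0.39). The interval of Zfp36l2 ends at −0.11 and those of the other 9 genes include 0, and the estimates of Cnot2 and Cnot7 turn to 0.35 and 0.52 when libraries are centred on their medians.

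Btg4 (chr9:51116001-51119700, plus strand, GRCm38) was the most abundant member in both pools. Its level was 701, 709, 726 and 990.1 FPKM in NP replicates 1 to 4, and 686, 1200.1, 1416 and 1103 FPKM in P replicates 1 to 4. P replicates 2, 3 and 4 stood above every NP library, while P replicate 1 stood below every one. The mean was 782 ± 139 FPKM in NP and 1101 ± 306 FPKM in P (SD, n = 4), a ratio of 1.41. Its log2 fold change was 0.46 (SE 0.50, 95% interval −0.61 to 1.53, limma adjusted p = 0.715). These values rest on 1208 to 9858 reads per library, so error from counting reads alone was small beside the spread between libraries. Reads of amplified cDNA are not independent molecules, and error from few starting molecules was not tested. Btg4 was above at least 99.2% of the genes tested in each library. Without P replicate 1 the groups no longer overlapped, which follows from leaving out the only P library that was not above every NP library. The log2 fold change was then 0.67 with an adjusted p of 0.612.

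In the 3′ UTR of Btg4, short sequence motifs of cytoplasmic polyadenylation stood close together. CPEs were searched as TTTTAT or TTTTAAT and polyadenylation signals as AATAAA or ATTAAA, on the transcript strand of GENCODE M21 (GRCm38). The UTR of 521 bases held 5 CPEs, or 9.6 per kb, and 99.5% of the 11072 3′ UTRs of tested genes with at least 100 bases had a lower density. The median of those UTRs was 0.859 per kb, 61.7% of them held at least 1 CPE and 14.7% held at least 5. The Btg4 CPEs shown here started 95 and 66 bases before the start of an AATAAA, and the letters in capitals mark the motifs. The first 2 lines are chr9:51119448-51119477 and chr9:51119476-51119505 on the plus strand. The third is chr8:40493033-40493062 on the minus strand, in Cnot7, and the fourth is chr11:58118552-58118581 on the plus strand, in Cnot8. They are shown because Cnot7 and Cnot8 code for the binding partners of BTG4. Counted between the motif starts, the CPE stood 9 bases before a signal in Cnot7 and 14 bases before one in Cnot8, and Cnot2, Cnot3 and Cnot6l also held a CPE within 30 bases of a signal. The CPEs shown for Btg4 began 417 and 388 bases from the annotated end of the UTR, that of Cnot7 began 516 bases from it and that of Cnot8 38 bases from it. The signals beside the Btg4 and Cnot7 CPEs were thus internal to the annotated UTR, and no signal was found in the last 100 bases of that of Btg4. Those bases, with a CPE within chr9:51119797-51119826, lay beyond position 51119700, where Btg4 ended in the expression table.
Btg4 CPE 1: cttttagctacTTTTAATtcttatttaact
Btg4 CPE 2: ctttatgtaaaaTTTTATgaacactagtga
Cnot7 CPE and signal: aggtacaTTTTATatcAATAAAaatacaaa
Cnot8 CPE and signal: tatgtTTTTAATtttgtaaAATAAAgattg

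Across the other members the CPE density was highest in Cnot7, with 9 in 1447 bases (6.22 per kb, above 97.5% of the UTRs), followed by Cnot3 with 1 in 283 bases (3.53 per kb). Cnot6l had the longest UTR of the members, 6847 bases, with 16 CPEs (2.34 per kb), and Zfp36l2 had 4 in 1822 bases (2.2 per kb). Cnot8 had the lowest density, 1 in 1006 bases (0.994 per kb, above 53.2% of the UTRs). A CPE within 100 bases of a signal was present in Btg4, Cnot2, Cnot3, Cnot6l, Cnot7 and Cnot8, as in 39.0% of the UTRs of tested genes. The mean of Btg4 was higher in P and that of Cnot7 higher in NP, but the pools overlapped for both genes (limma adjusted p = 0.715 and 0.753), and with median centring the log2 fold changes were 1.42 for Btg4 and 0.52 for Cnot7. A motif match is a run of letters, and binding of a protein to it was not measured.

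Zfp36l2 (chr17:84183931-84187947, minus strand), whose protein binds AU-rich elements and brings the CNOT6L form of the complex to oocyte mRNAs, was the scarcest member in P. It was listed at 2.22, 7.63, 3.62 and 0 FPKM in NP replicates 1 to 4 and at 0.543, 0.177, 0 and 0 FPKM in P replicates 1 to 4. In reads these values were 25, 35, 93 and 0 in NP, and 9, 2, 0 and 0 in P. NP replicates 1 to 3 were above every P library, and NP replicate 4 shared the value of 0 with P replicates 3 and 4. At 3 reads, the limit that a count of 0 allows, the level would have been 0.112 FPKM in NP replicate 4, 0.191 in P replicate 3 and 0.317 in P replicate 4. This holds for counting error only and if 1 step is 1 read. The mean was 3.37 ± 3.21 FPKM in NP and 0.18 ± 0.256 FPKM in P (SD, n = 4), 18.7 times higher in NP. Its log2 fold change was −1.54 (SE 0.66, 95% interval −2.96 to −0.11), with an unadjusted p of 0.0362 and an adjusted p of 0.478 by limma. It was −0.97 (unadjusted p = 0.109) with quantile normalization, −0.58 (0.38) with median centring and −2.97 (0.0653) with a pseudocount of 0.1. With 1 library left out at a time the unadjusted p lay between 0.00602 without NP replicate 4, where the groups no longer overlapped, and 0.0822 without P replicate 3. It was above 0.05 without NP replicate 2, NP replicate 3, P replicate 2, P replicate 3 or P replicate 4, each left out alone.

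Cnot1 (chr8:95719451-95807462, minus strand), the scaffold, was at 34.5, 20.4, 48.0 and 21.8 FPKM in NP replicates 1 to 4 and at 68.3, 55.4, 45.1 and 37.2 FPKM in P replicates 1 to 4. All 4 P libraries were above the NP mean, and only NP replicate 3 reached into the range of P. The mean was 31.2 ± 12.9 FPKM in NP and 51.5 ± 13.4 FPKM in P (SD, n = 4), and the log2 fold change was 0.76 (SE 0.59, 95% interval −0.51 to 2.02, adjusted p = 0.649). Without NP replicate 3 the groups did not overlap and the log2 fold change was 0.99, with an adjusted p of 0.653. The gene model behind these values covered 8390 bases, against 17169 bases when all annotated exons of Cnot1 are merged, and its exons overlap those of 4930513N10Rik, at a mean of 1.07 FPKM in NP and 0.259 in P.

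Cnot2 and Cnot3 code for the partners that form the NOT module on CNOT1, and both had their higher mean in NP. Cnot2 (chr10:116485161-116581511, minus strand) was at 70.1, 53.5, 83.2 and 123 FPKM in NP replicates 1 to 4 and at 66.3, 44.9, 72.8 and 31.9 FPKM in P replicates 1 to 4. All 4 P libraries were below the NP mean of 82.5 ± 29.7 FPKM, the P mean being 54.0 ± 19.0 FPKM (SD, n = 4), yet the ranges overlapped. Its log2 fold change was −0.61 (SE 0.57, 95% interval −1.83 to 0.61, adjusted p = 0.685), −0.38 without P replicate 4 and −0.40 without NP replicate 4, and it turned to 0.35 with libraries centred on their medians.

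Cnot3 (chr7:3645290-3661108, plus strand) was at 14.1, 15.6, 23.7 and 35.3 FPKM in NP replicates 1 to 4, and at 6.13, 2.8, 4.66 and 60.1 FPKM in P replicates 1 to 4. P replicates 1, 2 and 3 were below every NP library, and P replicate 4 was above every one. The mean was 22.2 ± 9.7 FPKM in NP and 18.4 ± 27.8 FPKM in P (SD, n = 4). Its log2 fold change was −1.15 (SE 0.89, 95% interval −3.06 to 0.77, adjusted p = 0.649) with all libraries and −2.02 (SE 0.75) without P replicate 4, where the groups did not overlap, the unadjusted p was 0.0176 and the adjusted p 0.497. It was −0.69 without P replicate 2 and −0.19 with median centring. P replicate 4 had the lowest scaling number of the P libraries and the fewest genes above 0, 9139. Cnot3 had 698 reads in it, 39 in P replicate 2 and 90 in P replicate 3, and the part of depth or amplification in this value was not tested. Exons of Cnot3 overlap those of Leng1, which had a mean of 6.07 FPKM in NP and 7.52 in P. The part of this overlap was not tested.

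Cnot4 (chr6:35022066-35133737, minus strand) codes for a ubiquitin ligase that is only loosely attached to the mammalian complex, and it was among the scarce members. It was at 1.35, 0.643, 3.63 and 1.91 FPKM in NP replicates 1 to 4 and at 4.03, 3.43, 1.63 and 7.74 FPKM in P replicates 1 to 4. P replicates 1 and 4 were above every NP library, P replicate 2 was just under NP replicate 3, and P replicate 3 lay within the NP range. With 6 to 190 reads per library, its mean was 1.88 ± 1.28 FPKM in NP and 4.21 ± 2.57 FPKM in P (SD, n = 4), and the log2 fold change was 0.82 (SE 0.81, 95% interval −0.91 to 2.56, adjusted p = 0.691). It was 0.53 without P replicate 4 and 1.11 without P replicate 3.

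Cnot7 and Cnot8, the genes of the CAF1-type nucleases that BTG4 binds, had their higher means in different pools, NP for Cnot7 and P for Cnot8, while the ranges of each overlapped. Cnot7 (chr8:40492540-40515847, minus strand) was at 64.6, 42.7, 112 and 96.6 FPKM in NP replicates 1 to 4 and at 40.7, 51.4, 65.5 and 64.3 FPKM in P replicates 1 to 4. All 4 P libraries were below the NP mean of 79.1 ± 31.4 FPKM, but 3 of them were within the NP range, and the P mean was 55.5 ± 11.8 FPKM (SD, n = 4). Its log2 fold change was −0.44 (SE 0.56, 95% interval −1.65 to 0.78, adjusted p = 0.753), between −0.70 without NP replicate 2 and −0.24 without NP replicate 3, and it turned to 0.52 with libraries centred on their medians. Exons of Cnot7 overlap those of Zdhhc2, which had a mean of 3.70 FPKM in NP and 2.16 in P.

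Cnot8 (chr11:58104153-58118594, plus strand) was the second most abundant member in both pools. It was at 112, 68.0, 96.0 and 213 FPKM in NP replicates 1 to 4 and at 267, 78.0, 207 and 184 FPKM in P replicates 1 to 4. P replicate 1 was above every NP library, NP replicate 4 was in the upper part of the P range, and P replicate 2 was among the low NP values. The mean was 122 ± 63.2 FPKM in NP and 184 ± 78.9 FPKM in P (SD, n = 4), and the log2 fold change was 0.58 (SE 0.59, 95% interval −0.69 to 1.86, adjusted p = 0.700). It was 0.35 without NP replicate 2, 0.36 without P replicate 1, 0.89 without NP replicate 4 and 0.95 without P replicate 2. The longest stretch of identical bases between the transcripts of Cnot7 and Cnot8 was 20 bases.

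Cnot6 and Cnot6l, the genes of the CCR4-type nucleases, both had a mean more than 2-fold higher in P. Cnot6 (chr11:49671503-49712723, minus strand) was at 0.663, 0.931, 5.74 and 2.73 FPKM in NP replicates 1 to 4 and at 16.1, 20.8, 1.5 and 7.06 FPKM in P replicates 1 to 4. P replicates 1, 2 and 4 were above every NP library, while P replicate 3 lay between NP replicates 2 and 4. The mean was 2.52 ± 2.34 FPKM in NP and 11.4 ± 8.71 FPKM in P (SD, n = 4), a ratio of 4.52. Its log2 fold change of 1.64 (SE 0.95, 95% interval −0.41 to 3.68, adjusted p = 0.564) was the highest of the members. Without P replicate 3 the groups did not overlap, and the log2 fold change was 2.27 with an unadjusted p of 0.0316 and an adjusted p of 0.527. These values rest on few reads in places, with 14 and 8 reads in NP replicates 1 and 2.

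Cnot6l (chr5:96070333-96164171, minus strand) codes for the CCR4-type enzyme that maternal mRNA decay is known to need in the mouse. It was at 25.8, 8.88, 23.2 and 26.6 FPKM in NP replicates 1 to 4 and at 22.2, 15.8, 51.7 and 92.2 FPKM in P replicates 1 to 4. P replicates 3 and 4 were above every NP library, and P replicates 1 and 2 were within the NP range. The mean was 21.1 ± 8.29 FPKM in NP and 45.5 ± 34.8 FPKM in P (SD, n = 4), a ratio of 2.15, and the log2 fold change was 0.86 (SE 0.72, 95% interval −0.68 to 2.41, adjusted p = 0.661). It was 0.51 without NP replicate 2 and 0.42 without P replicate 4, the libraries of lowest scaling number in their groups, and 0.07 without both.

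Within a library, the share of 1 enzyme among its pair does not depend on the scaling between libraries. Cnot7 made up 36.7%, 38.6%, 53.9% and 31.2% of the summed FPKM of Cnot7 and Cnot8 in NP replicates 1 to 4, and 13.2%, 39.7%, 24.1% and 25.9% in P replicates 1 to 4. Cnot8 was thus the larger of the pair in every library but NP replicate 3, and 3 of the 4 P shares lay below every NP share. The mean share of Cnot7 was 40.1% ± 9.75 in NP and 25.7% ± 10.9 in P (SD, n = 4), a difference of −14.4 percentage points, which stayed below 0 with each library left out in turn.

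The CCR4-type pair was dominated by Cnot6l in most libraries. Its share of the summed FPKM of Cnot6 and Cnot6l was 97.5%, 90.5%, 80.2% and 90.7% in NP replicates 1 to 4, and 58.0%, 43.2%, 97.2% and 92.9% in P replicates 1 to 4. P replicates 1 and 2 were far below every other library, and P replicates 3 and 4 were at the level of NP, so the mean of 72.8% ± 26.4 in P against 89.7% ± 7.15 in NP (SD, n = 4) averages P libraries of unlike shares. Cnot6 and Cnot6l in sum held 10.5% ± 2.48 of the summed FPKM of the 4 nuclease genes in NP and 19.5% ± 7.51 in P (SD, n = 4), with overlapping ranges.

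**Figure D3:**
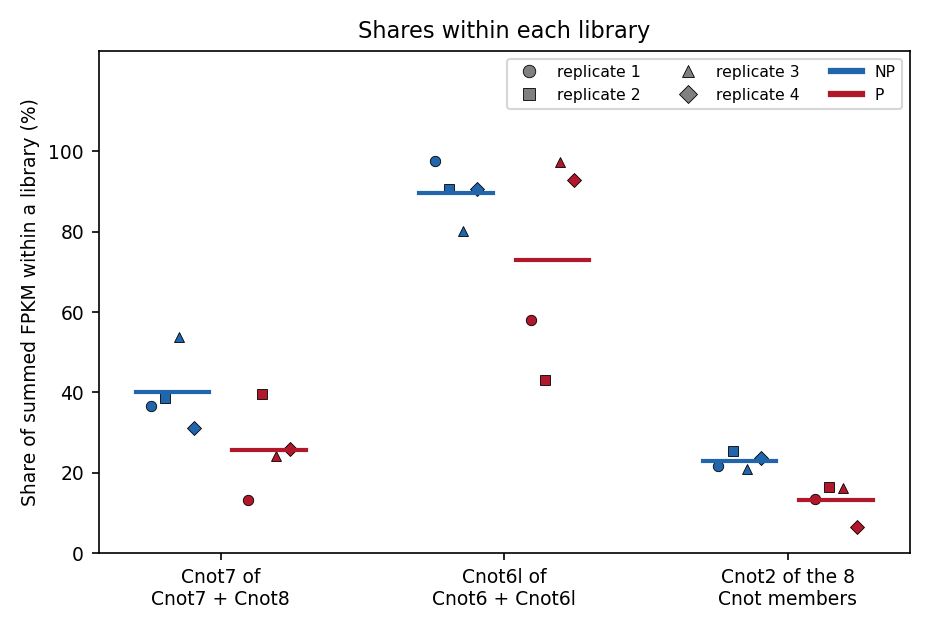
Share of Cnot7 among Cnot7 and Cnot8, of Cnot6l among Cnot6 and Cnot6l, and of Cnot2 among the 8 Cnot members, as a percent of summed FPKM within each of the 4 NP (blue) and 4 P (red) libraries, with a bar at each mean. The Cnot7 and Cnot6l shares overlap between the pools, the Cnot6l share in P splits into 58.0% and 43.2% against 97.2% and 92.9%, and the Cnot2 share does not overlap.

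Among the 8 Cnot members, 1 share did not overlap between the pools, that of Cnot2, and it is described for that reason and without a test. No such share was computed for other sets of genes, and of single gene levels 5.92% had every NP library above every P library. Cnot2 made up 21.7%, 25.4%, 21.0% and 23.6% of their summed FPKM in NP replicates 1 to 4 and 13.5%, 16.5%, 16.2% and 6.58% in P replicates 1 to 4. Shares of 1 sum cannot move independently, and the highest share in every library but NP replicate 3 belonged to Cnot8, at 24.2% to 40.9% in NP and 28.6% to 54.4% in P. The level of Btg4 was 2.32 ± 0.714 times the summed level of the 8 Cnot members in NP and 2.81 ± 1.28 times in P (SD, n = 4), and it exceeded that sum in every library.

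In the order of mean levels per length, Btg4 was followed by Cnot8 in both pools, and the ranges of this pair were apart in each. In NP, Cnot8, Cnot2, Cnot7, Cnot1, Cnot3 and Cnot6l followed with overlapping neighbours. All 4 NP libraries had Cnot6l above the whole range of Zfp36l2, and Zfp36l2, Cnot6 and Cnot4 again overlapped. In P, Cnot8 was apart from Cnot7, the run from Cnot7 through Cnot2, Cnot1, Cnot6l, Cnot3 and Cnot6 to Cnot4 overlapped from neighbour to neighbour, and Cnot4 was apart from Zfp36l2. FPKM divides by the length of the gene model, and the models recovered for Btg4, Cnot1, Cnot2, Cnot3 and Cnot4 were shorter than their merged annotated exons, 1311 against 2556 bases for Btg4.

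Members did not follow 1 common pattern across the 8 libraries, which is given as a description since the points share libraries and depth. The highest Pearson r of log2(FPKM + 1) between members was 0.75, for Cnot4 and Cnot6, followed by 0.71 for Cnot1 and Cnot6. The lowest was −0.75, for Btg4 and Zfp36l2. It rests on few values above the floor, as Zfp36l2 was at 0 in NP replicate 4 and P replicates 3 and 4. In P replicates 1 and 2 it was at 0.543 and 0.177 FPKM. Among 5638 genes with a mean above 10 FPKM, the patterns most like that of Btg4 were those of Gpd1l, a glycerol phosphate dehydrogenase (r = 0.891), Lin7c, a cell polarity scaffold (0.889), Kdm5c, a histone demethylase (0.884), Grlf1 (0.879) and D2Ertd750e (0.878). Like Btg4, all 5 had P replicate 1 below the other 3 P libraries, and their NP and P libraries overlapped. They were picked for likeness to Btg4 over these same 8 libraries, so the shared low value follows from the choice and is no separate result.

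Other genes of the pathway were grouped by role, and none was called by limma at an adjusted p below 0.1. Of 4 further CCR4-NOT subunits and partners, 3 were found, and all 3 had a log2 fold change below 0 (median −0.47), while 28.6% of all genes tested were above 0. Rqcd1, the older symbol of the CNOT9 gene, was at 17.7 ± 6.72 FPKM in NP and 11.4 ± 10.9 FPKM in P, with a log2 fold change of −1.26 (adjusted p = 0.644) that was −0.45 without P replicate 4 and −0.30 with median centring. Cnot10, which codes for a subunit at the N-terminal end of the scaffold, was at 48.8 ± 23.7 and 57.4 ± 44.3 FPKM (SD, n = 4 each). It was at 2.38 FPKM in P replicate 4 and at 44.0 to 105 FPKM in the other P libraries, and its log2 fold change of −0.35 became 0.75 without that library and 0.61 with median centring. Rqcd1 also had its lowest value, 0.39 FPKM, in P replicate 4, where Cnot3 had its highest.

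The 4 tested relatives of Btg4 in the BTG/TOB family had a median log2 fold change of 0.09 and lay on both sides. Tob1, an adaptor between CAF1 enzymes and poly(A)-binding protein, was at 0.673 to 12.7 FPKM in NP and 0.326 to 190.1 FPKM in P, and its log2 fold change of 1.17 became −0.10 without P replicate 3. Tob2, of the same function, was at 61.1 ± 18.1 FPKM in NP and 38.7 ± 17.8 FPKM in P (SD, n = 4, log2 fold change −0.72, adjusted p = 0.660, turning to 0.24 with median centring). Btg4 was thus far more abundant than the other family members in both pools, at 782 and 1101 FPKM.

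Genes listed as other deadenylases, whose enzyme activity was not measured here, had 8 of 8 log2 fold changes below 0. Of all genes tested, 28.6% were above 0. The median of the list was −0.54 beside −0.39 for all genes. Pan2, the nuclease of the PAN2-PAN3 complex that trims long tails, was the most abundant at 116 ± 53.5 FPKM in NP and 102 ± 64.0 FPKM in P (SD, n = 4), with a log2 fold change of −0.26 that turned to 0.05 without P replicate 1. Ccrn4l, the older symbol of the nocturnin gene, was at 30.8 ± 9.84 FPKM in NP and 11.9 ± 7.06 FPKM in P (SD, n = 4), with a log2 fold change of −1.40 (SE 0.68, adjusted p = 0.518). With median centring the fold changes of this list were not all below 0, as Pan2 was then at 0.69.

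Proteins that bring CCR4-NOT to mRNAs were represented by 17 tested genes of 20, 7 above 0 and 10 below, with a median of −0.07. Nanos2, a germ cell RNA-binding protein, was the most abundant at 191 ± 52.1 FPKM in NP and 121 ± 60.6 FPKM in P (SD, n = 4, log2 fold change −0.73, turning to 0.23 with median centring). Samd4b, a Smaug-type RNA-binding protein, was at 11.4 to 43.0 FPKM in NP and 7.47 to 10.0 FPKM in P, without overlap (log2 fold change −1.31, adjusted p = 0.533). Its relative Samd4, named after its values had been seen, was the other gene of the list without overlap, at 0.849 to 6.32 FPKM in NP and 0 to 0.699 FPKM in P, and the only one with an unadjusted p below 0.05 (0.0284, adjusted p = 0.456). Over all genes tested, 5.92% had every NP library above every P library and 9.47% had an unadjusted p below 0.05 with P lower. Tnrc6c, a partner of Argonaute proteins, was at 9.12 ± 8.1 FPKM in NP and 17.2 ± 25.2 FPKM in P, and its log2 fold change of 0.50 turned to −0.34 without P replicate 3.

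Of the poly(A)-binding proteins and their partners 8 were tested, with a median of −0.41 and no gene without overlap. Over all genes tested, 5.92% had every NP library above every P library and 0.357% the reverse. Pabpc1l, the embryonic poly(A)-binding protein of oocytes, was the most abundant, at 802 ± 68.6 FPKM in NP and 673 ± 541 FPKM in P (SD, n = 4, log2 fold change −0.57, adjusted p = 0.704, turning to 0.39 with median centring). Paip2b, an inhibitor of poly(A)-binding protein, was at 89.8 ± 63.8 FPKM in NP and 163 ± 93.3 FPKM in P (SD, n = 4, log2 fold change 0.88, adjusted p = 0.642). Pabpn1, the nuclear poly(A)-binding protein, named after its values had been seen, was the only gene of this list with an unadjusted p below 0.05 (limma, 0.0464). Of all genes tested, 9.47% had such a p with P lower. Its mean was 15.1 FPKM in NP and 1.71 in P. NP replicates 1 to 4 were at 39.3, 2.54, 3.39 and 15.3 FPKM, and P replicates 1 to 4 at 1.68, 0.103, 4.82 and 0.246 FPKM. Of 3 genes of uridylation, which marks mRNAs with short tails for decay, 2 were tested, and Zcchc6, a terminal uridylyltransferase, was at 9.12 ± 9.27 FPKM in NP and 6.39 ± 4.45 FPKM in P (SD, n = 4, log2 fold change −0.12, adjusted p = 0.960, above 0 with median centring or quantile normalization).

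**Figure D4:**
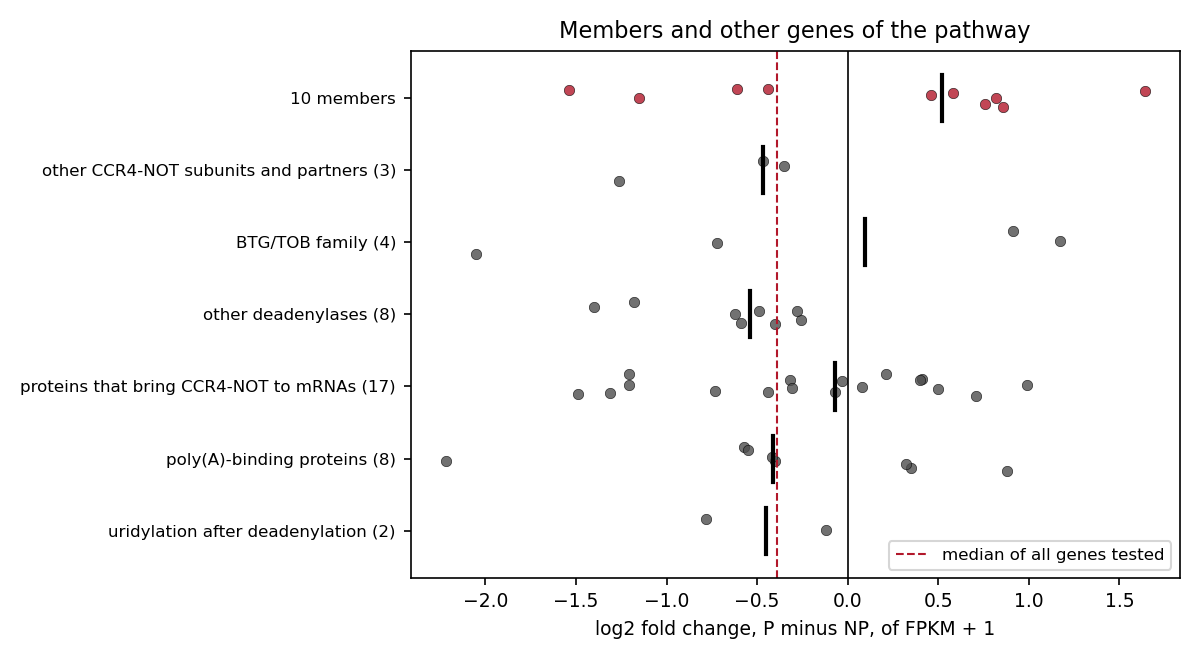
Log2 fold change of P minus NP on the log2(FPKM + 1) scale for the 10 members (red) and for the tested genes of 6 other lists of the pathway (grey), 1 point per gene, spread vertically only to keep points apart, with a black bar at each median. The median is 0.52 for the members, 0.09 for the BTG/TOB family and −0.54 for other deadenylases, beside −0.39 for all genes tested (dashed line), and no point passed the adjusted threshold.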

How the data were processed

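The 8 libraries (NP and P, replicates 1 to 4 by title) came from rRNA-depleted RNA that was reverse transcribed with oligo(dT) and random primers and amplified, so reads are not independent molecules. Per the submitters' processing notes, reads were trimmed with Trim Galore 0.4.1, checked with FastQC 0.11.5 and mapped to GRCm38 with HISAT2 2.0.5. The authors deposited FPKM values for 25574 genes, not log-transformed and without further normalization between libraries. Means computed here differed from the authors' by at most 0.000575 FPKM. The authors' tables of mean FPKM with ratios and of DESeq2 results hold their own comparisons and were not used. The strand setting of the counting was not stated.

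Genes with a mean above 0.1 FPKM in at least 1 group were tested 2-sided with limma 3.58.1 (R 4.3.3, eBayes with a trend) on log2(FPKM + 1), P minus NP, all 8 libraries, Benjamini-Hochberg adjustment across all genes, threshold 0.1. Fold changes on this scale understate those of low genes. Reads were recovered as steps between FPKM values for 14084 of 15585 genes above 0 (90.4%), and for all 10 members. They were not checked against sequenced reads. Tables and 3′ UTRs (GENCODE M21) were handled with Python 3.11.15, pandas 2.3.3 and numpy 2.4.6. The script was tested on simulated data. The members and the gene lists were chosen with earlier results of these data known. Genes named were all members, and in each list the most abundant gene and, above a mean of 10 FPKM, those of largest positive and negative fold change. For Btg4, the 5 genes of highest correlation were named. Alternatives were the pseudocount, the filter, quantile normalization, median centring, no trend, voom, a replicate block and each library left out.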

Additional observations from a re-analysis of the deposited data

Results flagged for a closer look

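In 24 groups of 4 libraries, values that stood far from the other 3 were looked for, and chance gives about 1 such value in 20 groups. Btg4 in NP replicate 4 was at 990.1 FPKM, while the other NP libraries lay between 701 and 726 FPKM. The gap was 0.897 of the range of the group on the log2(FPKM + 1) scale. Cnot6l in NP replicate 2 was at 8.88 FPKM, while the other NP libraries lay between 23.2 and 26.6 FPKM, a gap of 0.871 of the range. NP replicate 2 had the lowest scaling number of all libraries, 1299377, and Cnot6l had 119 reads in it.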

How the results depend on the processing

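Amplified cDNA of small inputs, 4 libraries per pool and the spread between P libraries limit these comparisons. No adjusted call was made for any of the 10 members under 17 alternatives. The number of members with an unadjusted p below 0.05 was 1 (9.95% of all genes tested). It was 0 with a pseudocount of 0.1 (11.4%), 0 with voom (13.6%) and 6 with median centring (20.3%). With 1 library left out it was 0 to 1, beside 7.76% to 11.3% of all genes tested. It was 0 without NP replicate 2 (7.76%), NP replicate 3 (8.94%) or P replicate 2 (8.52%). The member was then Zfp36l2, Cnot6 or Cnot3. With quantile normalization the member was Cnot6 (limma, 0.0205, log2 fold change 2.36), and 6.59% of all genes tested had such a p. The median log2 fold change of the members was 1.48 with median centring. Members with every NP library above every P library numbered 0 to 1, and with every P library above every NP library 0 to 1, when 1 library was left out. The latter were 1 with quantile normalization and 2 with median centring. The share of all genes without overlap was not computed under either, so these counts cannot be set beside it. The log2 fold change was above 0 for 49.0% of all genes with quantile normalization and 73.0% with median centring, against 28.6% without. For Btg4, Cnot1, Cnot3, Cnot6 and Zfp36l2, the library whose removal ended the overlap was the only one that caused it. That separation thus follows from the removal, and its share over all genes was not computed. Members with a 2-fold difference of means numbered 4, and 2 to 5 with 1 library left out, the 2 being without NP replicate 2. With median centring the log2 fold changes of Cnot2 (0.35), Cnot7 (0.52), Cnot10 (0.61), Tob2 (0.24), Pan2 (0.69), Nanos2 (0.23), Pabpc1l (0.39) and Zcchc6 (0.84) were above 0, and with quantile normalization those of Cnot10 (0.09) and Zcchc6 (0.53). With 1 library left out, the log2 fold change of Cnot10 was −0.90 to 0.75, of Tob1 −0.10 to 2.29, of Pan2 −0.64 to 0.05, of Tnrc6c −0.34 to 1.02 and of Zcchc6 −0.61 to 0.44. Cnot10 was at 0.89 without NP replicate 2 and P replicate 4, an alternative chosen after seeing the data. The cause of these turns was not tested.

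No source used here states that a replicate number marks the same gradient in both pools. The deviations of same-numbered libraries from the group means correlated at 0.052 to 0.251 over 11374 genes, other numbers at −0.135 to 0.136. Of the 8 libraries, 7 were closest to their own number. NP replicate 2 was the exception, at 0.052 with P replicate 2 and 0.136 with P replicate 1. The study pooled the NP and P fractions of the same profiles, so matched libraries are part of its design. The main comparison was unpaired because no source ties the numbers to gradients, and it ignores any such matching. With the replicate number as a block in limma, 1 member, Zfp36l2, had an unadjusted p below 0.05 (0.0339, adjusted p = 0.384), and 0 were called. Of all genes tested, 12.1% had such a p under the block. Cnot2 was lower in P in all 4 same-numbered libraries, with an unadjusted p of 0.305 under the block.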
